A study of Homo sapiens with 4 samples.

Results

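The replication licensing and S phase set is a list of 57 human genes whose products mark replication origins, load and fire the replicative helicase, copy DNA, supply deoxynucleotides, switch on S phase transcription and package new chromatin. Its members were chosen by symbol from the deposited count table and had to reach 10 counts in at least 2 of the 4 libraries. All 57 listed genes met that rule, of 16839 gene rows in the table, and all 57 were among the 14546 genes that passed the filter on low counts and were tested.

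Before a cell copies its DNA, the origin recognition complex together with CDC6 and CDT1 loads the MCM2-7 helicase onto chromatin, a step called licensing that geminin (GMNN) blocks outside G1. CDC7-DBF4 kinase, CDC45 and the GINS complex then turn the loaded helicase into a moving fork, where primase, the polymerases and the PCNA clamp make DNA. E2F transcription factors drive many of these genes, and SETD8, also named KMT5A, is the enzyme that places a single methyl group on lysine 20 of histone H4, a mark that has been tied to origin licensing and that rises and falls through the cell cycle.

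D458 is an established cell line of human medulloblastoma, a cancer of the cerebellum, and its messenger RNA was sequenced as single reads of 50 bases from stranded libraries. In the shSETD8 group, cells carried a lentiviral hairpin against SETD8 with a stated knockdown of 80%. In the shNull group, cells of the same line carried a non-targeting hairpin and the labels call SETD8 wild type. All cells were transduced and then kept for 14 days in 1 µg/mL of puromycin, and each group had 2 libraries, made from separate clones. The labels list several hairpins against SETD8 without assigning them to clones. The comparison asks which transcripts differ when SETD8 is lowered, and the values of 1 clone include whatever is particular to that clone.

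SETD8 itself had 14.0 and 26.4 CPM (read counts scaled to library size) in shSETD8 replicates 1 and 2 and 38.9 and 41.6 CPM in shNull replicates 1 and 2. Both shSETD8 libraries lay below both shNull libraries, their mean was 50.1% of the shNull mean, and replicate 1 was the lower of the pair. The log2 fold change was -0.998 ± 0.303 (SE; edgeR quasi-likelihood adjusted p = 0.421, DESeq2 adjusted p = 0.055). Total counts ran from 49064974 to 52627366 in shSETD8 and from 40908334 to 44527591 in shNull, so the shSETD8 libraries were also the deeper ones. The members took 0.618% to 0.682% of counts in shSETD8 and 0.648% to 0.693% in shNull. MYC lay between 2597 and 2954 CPM and OTX2 between 2114 and 2481 CPM over the 4 libraries, so both medulloblastoma markers were high throughout. The 4 tested fibroblast markers of 5 summed to 41.2 and 50.5 CPM in shSETD8 and to 70.3 and 61.1 CPM in shNull, with DCN and LUM lower and COL1A1 and PDGFRB higher in both shSETD8 libraries. The 2 tested leukocyte markers of 4 summed to 2.25 and 2.13 CPM in shSETD8 and to 1.90 and 2.29 CPM in shNull. VWF, GFAP and AQP4 had between 1 and 19 counts in every library. The part of depth and of these markers in the results that follow was not tested.

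The promoter windows below belong to the members that the results turn on. POLD2, E2F3 and MCM3 had the lowest p of all members, and E2F2 and CDC6 had the widest gaps between the shSETD8 clones. Each window runs from 250 bases before the transcription start to 50 bases after it, 5′ to 3′ on the strand of the gene, in RefSeq on GRCh38.p14. Capitals mark the E2F words TTTCCCGC, TTTCGCGC, TTTGCCGC and TTTGGCGC, read on either strand.
POLD2 (chr7:44123499-44123798, - strand): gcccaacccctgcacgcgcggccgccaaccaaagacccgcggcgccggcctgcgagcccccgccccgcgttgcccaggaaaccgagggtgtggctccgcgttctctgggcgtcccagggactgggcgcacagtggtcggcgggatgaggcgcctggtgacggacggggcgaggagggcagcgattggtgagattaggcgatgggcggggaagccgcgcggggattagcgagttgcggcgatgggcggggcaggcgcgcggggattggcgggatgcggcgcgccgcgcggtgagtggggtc
E2F3 (chr6:20401629-20401928, + strand): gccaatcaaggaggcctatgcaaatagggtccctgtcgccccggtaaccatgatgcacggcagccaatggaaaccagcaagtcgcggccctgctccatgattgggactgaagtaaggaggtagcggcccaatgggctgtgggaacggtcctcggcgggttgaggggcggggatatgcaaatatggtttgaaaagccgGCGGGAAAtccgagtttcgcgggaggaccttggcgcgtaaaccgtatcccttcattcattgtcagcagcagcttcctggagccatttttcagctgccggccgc
MCM3 (chr6:52284693-52284992, - strand): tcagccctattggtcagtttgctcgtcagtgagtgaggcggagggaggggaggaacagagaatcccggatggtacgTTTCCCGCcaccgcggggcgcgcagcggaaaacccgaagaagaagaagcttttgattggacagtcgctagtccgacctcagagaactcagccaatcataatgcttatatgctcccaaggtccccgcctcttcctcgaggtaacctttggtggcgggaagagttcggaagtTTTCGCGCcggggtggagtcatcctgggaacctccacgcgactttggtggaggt
E2F2 (chr1:23531184-23531483, - strand): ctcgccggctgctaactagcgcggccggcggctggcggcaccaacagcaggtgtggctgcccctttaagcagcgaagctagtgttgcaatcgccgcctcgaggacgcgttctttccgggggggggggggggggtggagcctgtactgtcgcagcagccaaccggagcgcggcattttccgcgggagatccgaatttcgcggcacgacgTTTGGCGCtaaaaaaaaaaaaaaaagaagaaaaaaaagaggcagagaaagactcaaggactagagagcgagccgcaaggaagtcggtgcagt
CDC6 (chr17:40287629-40287928, + strand): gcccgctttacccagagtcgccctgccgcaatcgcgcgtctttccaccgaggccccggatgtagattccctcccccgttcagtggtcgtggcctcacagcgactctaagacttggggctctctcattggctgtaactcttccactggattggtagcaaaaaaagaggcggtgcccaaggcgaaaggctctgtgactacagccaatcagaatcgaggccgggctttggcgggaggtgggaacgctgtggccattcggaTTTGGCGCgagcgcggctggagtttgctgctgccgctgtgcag

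The POLD2 window held none of the 4 E2F words, MCM3 held 2, and the other windows held 1 each. Of the 57 members, 52 had a promoter in the RefSeq table. E2F8, MCM4, MCM5, GINS4 and POLD3 did not match. An E2F word was present in 23 of the 52, or 44.2%, against 3.33% of all 27305 promoters in the table, which are of the same length. CCAAT or its complement ATTGG, the word bound by the factor NF-Y, was present in 57.7% of the members' windows and in 35.7% of all windows. The word TTTGAA or TTCAAA, the core of the cell cycle genes homology region found in genes that peak in G2 and mitosis, was present in 7.69% of the members' windows against 15.4% of all. In 20 genes of the G2/M phase, of which 16 matched, the same word was present in 68.8% and an E2F word in 12.5%. CCAAT was present in 87.5% of the G2/M windows, so it was the most frequent of these words in both sets. Of the 14546 genes tested, 11330 had a promoter in the table. Among those an E2F word was present in 5.35%, CCAAT in 37.2% and TTTGAA in 9.89%. All members were tested genes, so these shares are the closer background for them than those of all promoters. The shares describe letters and say nothing of binding.

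**Figure D1:**
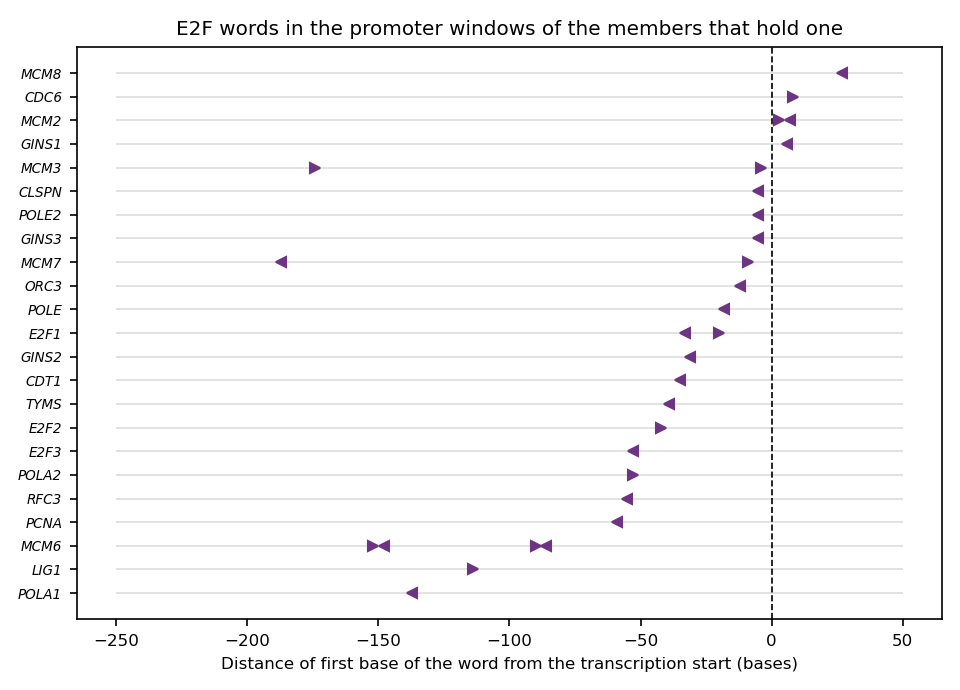
Position of each E2F word in the 300-base promoter windows of the 23 members that hold at least 1. The x axis gives the distance in bases of the first base of the word from the transcription start (dashed line), right-pointing triangles are words on the strand of the gene and left-pointing triangles words on the opposite strand. Of 30 words, 25 lay upstream of the start and 24 within 100 bases of it, and MCM6 held 4 in overlapping pairs.

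The members as a set stayed close to the shNull level. Their log2 fold changes, shSETD8 over shNull, ran from -0.35 to 0.41 with a median of -0.06, against a median of 0.01 over all 14546 genes tested, and 43 of 57 were smaller than 0.2 in size. Each member had at least 534 counts in every library, and the standard errors ran from 0.08 to 0.38. In bulk RNA, fewer cells in S phase and less RNA of these genes per cell cannot be told apart.

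edgeR's quasi-likelihood test called 0 of the 57 members at a Benjamini-Hochberg adjusted p under 0.05, with a background of 0% of all genes (0 of 14546). The lowest adjusted p was 0.362 among members and 0.289 among all genes. At an unadjusted p under 0.05, 3 members were lower, which is 5.26% of members against 5.16% of all genes, and 1 was higher, which is 1.75% against 5.65%. DESeq2 called 1 member higher (POLD2), which is 1.75% against 0.928% of all genes, and 0 lower, against 0.956%. At these thresholds the share of members that were lower was near the background. The edgeR likelihood ratio test also called POLD2 alone among members (adjusted p = 0.0452), again 1.75% against 1.7% of all genes, and limma-voom called 0, against 0%.

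By direction, the set leaned downward, and so did the G2/M genes described below. The log2 fold change was below 0 in 37 of 57 members, or 64.9%, against 48.8% of all genes. Both shSETD8 libraries lay below both shNull libraries in 21 members, or 36.8%, against 22.4% of all genes. Both lay above in 5 members, or 8.77%, against 22.9%. Those 5 were ORC5, GINS4, TIMELESS, RFC2 and POLD2, and in the other 31 members the groups overlapped. The lean differed between the clones: against the shNull mean the members' median log2 difference was 0.03 in shSETD8 replicate 1 and -0.12 in shSETD8 replicate 2. Of the 57 members, 26 were below the shNull mean in replicate 1 and 48 in replicate 2. Of all 14546 genes tested, 7230 were below it in replicate 1 and 7194 in replicate 2. In replicate 1 the members as a set thus showed no downward lean.

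**Figure D2:**
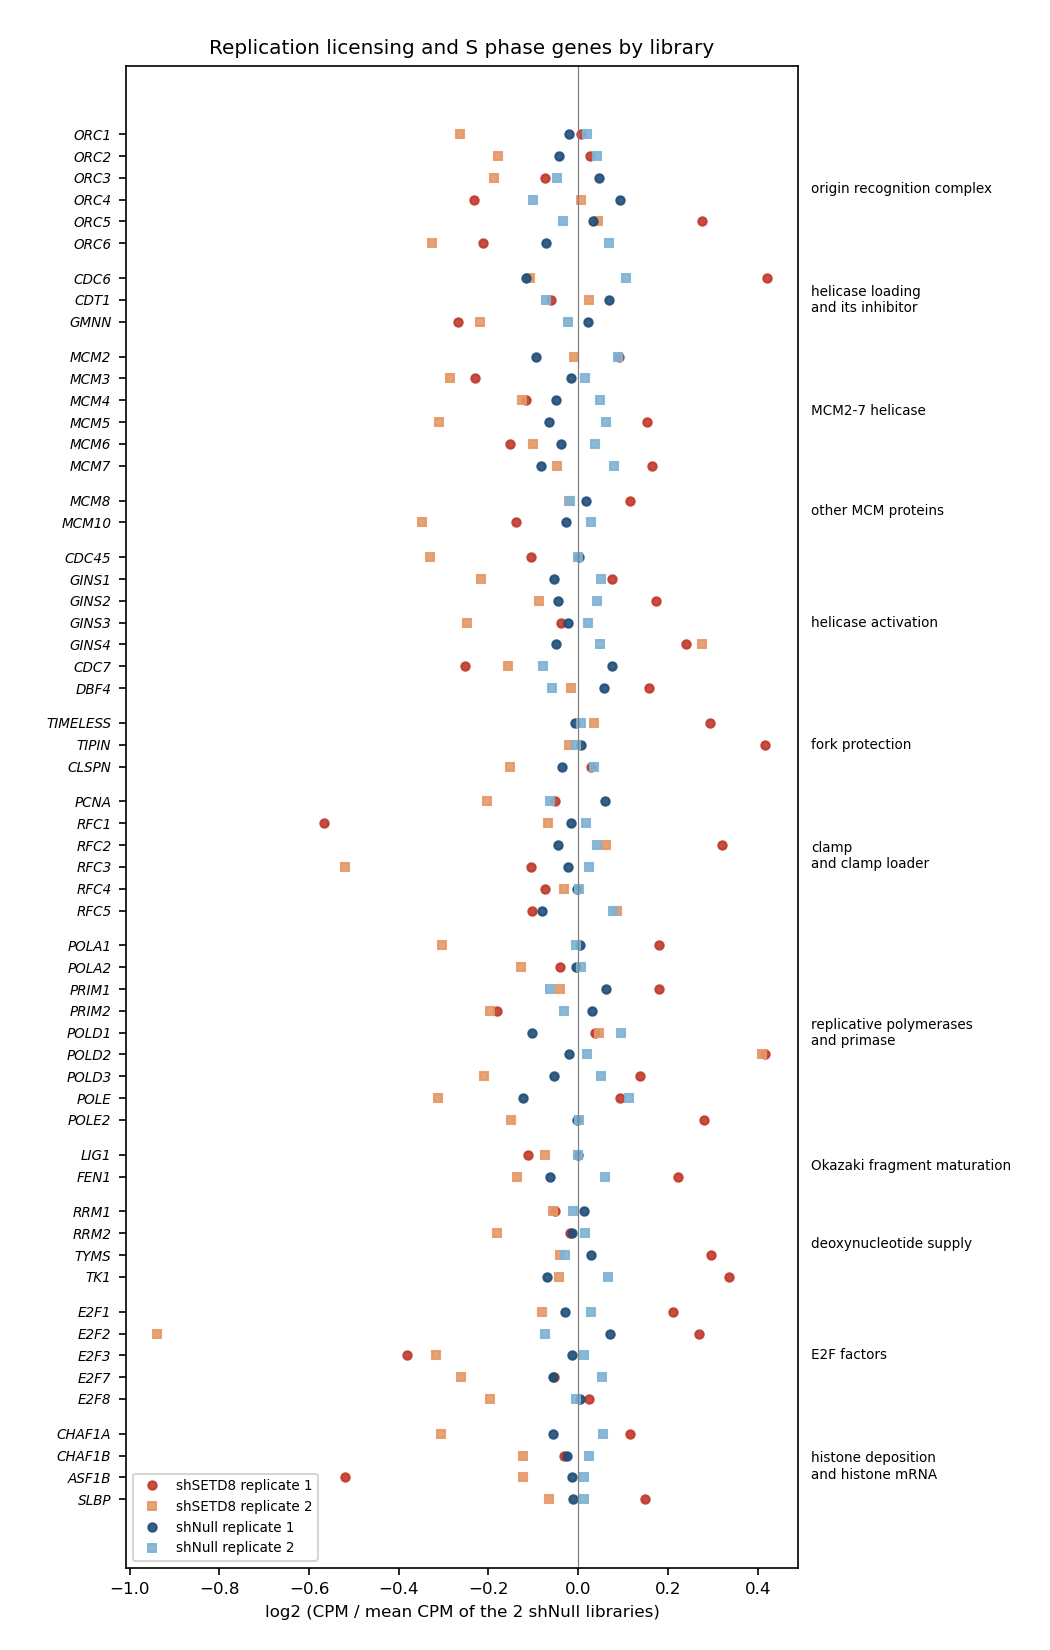
Level of each of the 57 members in each library, as the log2 ratio of its CPM to the mean CPM of the 2 shNull libraries (x axis), with members grouped by role down the page. Red circles and orange squares are shSETD8 replicates 1 and 2, dark and light blue circles and squares are shNull replicates 1 and 2. The shNull points are centred on 0 because their own mean is the reference. The orange squares lie left of 0 for 48 of 57 members and the red circles for 26. Of all 14546 genes tested, 7194 were below the shNull mean in shSETD8 replicate 2 and 7230 in replicate 1.

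The origin recognition complex marks the sites where replication can start. Of its 6 subunits, 5 were below 0, or 83.3% against 48.8% of all genes, with a median of -0.12 on the log2 scale. Its smallest subunit, ORC6, was at 40.7 and 37.6 CPM in shSETD8 and at 44.9 and 49.5 CPM in shNull, a log2 fold change of -0.27 ± 0.11 (edgeR quasi-likelihood adjusted p = 0.478). ORC5 was the exception in direction, at 42.0 and 35.8 CPM in shSETD8 and at 35.5 and 33.9 CPM in shNull, with a log2 fold change of 0.17 ± 0.13 (edgeR quasi-likelihood adjusted p = 0.644). That value was 0.04 without shSETD8 replicate 1 and 0.28 without shSETD8 replicate 2. ORC6 and ORC5 did not overlap between the groups, and neither was called. Of the others, ORC3 was below both shNull libraries, with 65.2 and 60.3 CPM in shSETD8 and 70.9 and 66.4 CPM in shNull, and ORC1, ORC2 and ORC4 overlapped. ORC1, the subunit that comes and goes with the cell cycle in human cells, was at 38.1 and 31.6 CPM in shSETD8 and at 37.4 and 38.4 CPM in shNull. Per kilobase of transcript, the subunits' mean levels lay between 8.83 and 25.1 CPM in shSETD8 and between 9.52 and 28.98 CPM in shNull. ORC4 had the lowest mean in both groups. ORC2 was below ORC4 in shSETD8 replicate 2 (9.2 against 9.559 CPM per kilobase) and in shNull replicate 1 (10.11 against 10.16).

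The helicase loaders and their inhibitor did not share a direction. Geminin, the protein that holds CDT1 inactive in S and G2, was at 65.7 and 68.0 CPM in shSETD8 and at 80.3 and 77.8 CPM in shNull. Both shSETD8 clones were below both shNull clones and close to each other, with a log2 fold change of -0.24 ± 0.09 (edgeR quasi-likelihood adjusted p = 0.457, DESeq2 adjusted p = 0.449). CDT1, the loader that is degraded at S phase entry through the same ubiquitin ligase that turns over the SETD8 protein, was at 85.3 and 90.5 CPM in shSETD8 and at 93.3 and 84.6 CPM in shNull, so its mRNA overlapped, with a log2 fold change of -0.02 ± 0.10 (edgeR quasi-likelihood adjusted p = 0.964). CDC6, the ATPase that works with the origin recognition complex to load the helicase, was at 132 and 91.2 CPM in shSETD8 and at 90.7 and 106 CPM in shNull. CDC6 was high in shSETD8 replicate 1 alone, and its log2 fold change of 0.18 ± 0.20 (edgeR quasi-likelihood adjusted p = 0.754) was -0.11 without that library and 0.42 without shSETD8 replicate 2.

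Of the 6 MCM2-7 helicase subunits, 4 were below 0, or 66.7% against 48.8% of all genes. Both shSETD8 libraries lay below both shNull libraries in 3, or 50% against 22.4% of all genes. The median of the 6 was -0.09 on the log2 scale. MCM3 was at 444 and 427 CPM in shSETD8 and at 515 and 526 CPM in shNull, a log2 fold change of -0.26 ± 0.08 (edgeR quasi-likelihood adjusted p = 0.425, DESeq2 adjusted p = 0.216). Its 2 shSETD8 values were close together and well below the shNull pair. MCM4 was at 327 and 325 CPM in shSETD8 and at 342 and 366 CPM in shNull. MCM6 was at 198 and 205 CPM in shSETD8 and at 215 and 226 CPM in shNull, with a log2 fold change of -0.13 ± 0.09 (edgeR quasi-likelihood adjusted p = 0.611). MCM3, MCM4 and MCM6 are thus the subunits whose groups did not overlap, by small amounts for MCM4 and MCM6.

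MCM2, MCM5 and MCM7 overlapped between the groups. MCM2 was at 448 and 418 CPM in shSETD8 and at 394 and 448 CPM in shNull, with a log2 fold change of 0.04 ± 0.10 (edgeR quasi-likelihood adjusted p = 0.905). MCM5 was at 192 and 139 CPM in shSETD8 and at 165 and 180 CPM in shNull, and MCM7 at 667 and 576 CPM in shSETD8 and at 562 and 629 CPM in shNull. For both MCM5 and MCM7, shSETD8 replicate 1 was the highest library of the 4. Although the 6 proteins work in equal numbers in the helicase, their mRNA levels were unequal. Per kilobase of transcript, mean levels ran from 46.9 CPM for MCM5 to 210 CPM for MCM7 in shSETD8. In shNull they ran from 48.9 CPM for MCM5 to 201 CPM for MCM7. The order of the 6 means (MCM7, MCM3, MCM2, MCM4, MCM6, MCM5) was the same in both groups. In shSETD8 replicate 1, MCM5 at 54.4 CPM per kilobase was above MCM6 at 53.1.

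MCM8 and MCM10 share the name but are not part of that ring: MCM10 helps the helicase to start, and MCM8 acts in recombination. MCM10 was at 86.5 and 74.8 CPM in shSETD8 and at 93.4 and 97.1 CPM in shNull, with a log2 fold change of -0.24 ± 0.11 (edgeR quasi-likelihood adjusted p = 0.492). MCM8 was at 63.8 and 58.1 CPM in shSETD8 and at 59.7 and 58.2 CPM in shNull, with a log2 fold change of 0.05 ± 0.10 (edgeR quasi-likelihood adjusted p = 0.887). MCM10 was below both shNull libraries in both clones, more so in replicate 2, and MCM8 overlapped.

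Helicase activation genes were split. Of 7, 4 were below 0, or 57.1% against 48.8% of all genes, and their median was -0.06 on the log2 scale. The GINS complex has 4 subunits that bind the helicase in equal numbers, and their mRNAs did not share a direction. GINS4 was at 46.6 and 47.8 CPM in shSETD8 and at 38.2 and 40.8 CPM in shNull, a log2 fold change of 0.26 ± 0.10 (edgeR quasi-likelihood adjusted p = 0.466). GINS3 was at 52.4 and 45.4 CPM in shSETD8 and at 53.0 and 54.7 CPM in shNull, on the other side, and GINS1 and GINS2 overlapped, with log2 fold changes of -0.06 and 0.05. GINS4 was the member of the complex whose groups were apart in the upward direction, and GINS3 was apart downward. CDC45, the third component of the active helicase, was at 55.7 and 47.7 CPM in shSETD8 and at 60.0 and 59.9 CPM in shNull, with a log2 fold change of -0.21 ± 0.12 (edgeR quasi-likelihood adjusted p = 0.540). CDC7, the kinase that fires origins, was at 42.5 and 45.4 CPM in shSETD8 and at 53.3 and 47.9 CPM in shNull. Its activator DBF4 overlapped, at 77.7 and 68.8 CPM in shSETD8 and at 72.4 and 66.8 CPM in shNull.

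The fork protection genes, which hold the helicase and the polymerases together when forks slow, had the highest median of the role groups, 0.17 on the log2 scale. TIMELESS was at 221 and 185 CPM in shSETD8 and at 180 and 181 CPM in shNull, a log2 fold change of 0.17 ± 0.12 (edgeR quasi-likelihood adjusted p = 0.606). Its binding partner TIPIN was at 28.7 and 21.2 CPM in shSETD8 and at 21.6 and 21.4 CPM in shNull, a log2 fold change of 0.21 ± 0.18 (edgeR quasi-likelihood adjusted p = 0.675). In both genes the distance rested on shSETD8 replicate 1, while replicate 2 lay next to the shNull pair. CLSPN, the mediator of the checkpoint kinase CHK1, was at 48.7 and 42.9 CPM in shSETD8 and at 46.5 and 48.9 CPM in shNull.

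PCNA, the sliding clamp that tethers polymerases and to which SETD8 protein binds in S phase, was at 166 and 149 CPM in shSETD8 and at 180 and 165 CPM in shNull. The ranges overlapped by a narrow margin, and the log2 fold change was -0.13 ± 0.10 (edgeR quasi-likelihood adjusted p = 0.665). Over all genes tested, 22.4% lay below both shNull libraries and 22.9% above both. Of the clamp loader, made of RFC1 to RFC5, 3 subunits lay below both and 1 above both. RFC1, its large subunit, was at 141 and 199 CPM in shSETD8 and at 206 and 211 CPM in shNull. RFC3 was at 78.0 and 58.5 CPM in shSETD8 and at 82.5 and 85.2 CPM in shNull. RFC1 was low mainly in shSETD8 replicate 1 and RFC3 mainly in replicate 2, so that log2 fold changes of like size, -0.30 ± 0.18 and -0.30 ± 0.16 (edgeR quasi-likelihood adjusted p = 0.563 and 0.528), rested on different clones. RFC2 was at 92.7 and 77.6 CPM in shSETD8 and at 72.0 and 76.5 CPM in shNull, with a log2 fold change of 0.20 ± 0.12. RFC4 and RFC5 had log2 fold changes of -0.05 and -0.01.

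Among the polymerases and primase, POLD2 stood apart. POLD2 encodes an accessory subunit of DNA polymerase delta, the main lagging-strand polymerase, and was at 397 and 395 CPM in shSETD8 and at 294 and 302 CPM in shNull. The clones agreed closely within each group, and the shSETD8 mean was 133% of the shNull mean. Its log2 fold change of 0.41 ± 0.08 was the most positive of the members (edgeR quasi-likelihood adjusted p = 0.362, DESeq2 adjusted p = 0.0052). It was 0.41 without shSETD8 replicate 1, 0.42 without shSETD8 replicate 2, and 0.39 and 0.43 without shNull replicate 1 and 2, so its size did not rest on 1 library. Its DESeq2 call was lost without either shNull library. Without shSETD8 replicate 1 or 2 the call was kept, but there it is a call on a single clone. In those fits DESeq2 called a larger share of all genes than with all libraries, so the kept call cannot serve as support.

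The other subunits of polymerase delta did not share that distance. POLD1, the catalytic subunit, was at 148 and 149 CPM in shSETD8 and at 134 and 154 CPM in shNull, a log2 fold change of 0.04 ± 0.10. POLD3, a further accessory subunit, was at 27.0 and 21.2 CPM in shSETD8 and at 23.6 and 25.4 CPM in shNull, a log2 fold change of -0.03 ± 0.16. Per kilobase, POLD2 averaged 184 CPM in shSETD8 and 138 CPM in shNull, above POLD1 at 43.1 CPM in shSETD8 and 41.8 CPM in shNull and POLD3 at 6.30 CPM in shSETD8 and 6.42 CPM in shNull. The difference between POLD2 and the other subunits in fold change was not tested.

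Polymerase alpha and primase start each new strand, and polymerase epsilon copies the leading strand. PRIM2, the large primase subunit, was at 32.2 and 31.8 CPM in shSETD8 and at 37.3 and 35.7 CPM in shNull, a log2 fold change of -0.19 ± 0.10 (edgeR quasi-likelihood adjusted p = 0.542). POLA2, the accessory subunit of polymerase alpha, was also below both shNull libraries, with a log2 fold change of -0.08. POLA1, PRIM1, POLE and POLE2 overlapped between the groups, with log2 fold changes between -0.10 and 0.08. In POLA1 and POLE the clones were far apart: POLA1 had 158 and 113 CPM in shSETD8 and 140 and 139 CPM in shNull, and POLE had 175 and 132 CPM in shSETD8 and 150 and 177 CPM in shNull.

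Okazaki fragment maturation, which joins the lagging strand, was represented by LIG1, the ligase, and FEN1, the flap nuclease. LIG1 was at 88.3 and 90.7 CPM in shSETD8 and at 95.5 and 95.4 CPM in shNull, a log2 fold change of -0.09 ± 0.09 (edgeR quasi-likelihood adjusted p = 0.712). FEN1 was at 201 and 156 CPM in shSETD8 and at 165 and 179 CPM in shNull, a log2 fold change of 0.05 ± 0.14 (edgeR quasi-likelihood adjusted p = 0.913). The shSETD8 mean of LIG1 was 93.7% of the shNull mean with no overlap, and FEN1 was both highest and lowest in shSETD8.

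The median over deoxynucleotide supply genes was 0.04 on the log2 scale. The ribonucleotide reductase subunits RRM1 and RRM2, which make deoxynucleotides from ribonucleotides, lay just below the shNull libraries. RRM1 was at 186 and 185 CPM in shSETD8 and at 194 and 191 CPM in shNull. RRM2 was at 213 and 191 CPM in shSETD8 and at 214 and 218 CPM in shNull, with a log2 fold change of -0.10 ± 0.10 (edgeR quasi-likelihood adjusted p = 0.732). The thymidylate genes behaved otherwise: TYMS, which makes thymidylate, was at 51.7 and 40.9 CPM in shSETD8 and at 42.9 and 41.2 CPM in shNull, and TK1, which salvages thymidine, was at 90.7 and 69.8 CPM in shSETD8 and at 68.5 and 75.2 CPM in shNull. Both were highest in shSETD8 replicate 1, and their log2 fold changes were 0.14 ± 0.14 and 0.16 ± 0.15 (edgeR quasi-likelihood adjusted p = 0.744 and 0.721).

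The E2F factors had the lowest median of the role groups, -0.15 on the log2 scale. E2F3, an activator of S phase genes, was at 92.3 and 96.5 CPM in shSETD8 and at 119 and 121 CPM in shNull. Both shSETD8 clones were well below both shNull clones, the shSETD8 mean was 78.5% of the shNull mean, and the log2 fold change of -0.35 ± 0.09 was the most negative of the members (edgeR quasi-likelihood adjusted p = 0.383, DESeq2 adjusted p = 0.0901). E2F1, the activator best known for S phase entry, was at 106 and 86.2 CPM in shSETD8 and at 89.4 and 93.1 CPM in shNull, a log2 fold change of 0.07 ± 0.13 (edgeR quasi-likelihood adjusted p = 0.854). E2F2, the third activator, was at 44.7 and 19.3 CPM in shSETD8 and at 39.0 and 35.2 CPM in shNull. E2F2 was thus both highest and lowest in shSETD8, and its standard error of 0.38 around a log2 fold change of -0.21 was the largest of the members.

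The atypical repressors E2F7 and E2F8, which close the S phase programme, overlapped between the groups. E2F7 was at 27.4 and 23.7 CPM in shSETD8 and at 27.3 and 29.5 CPM in shNull, a log2 fold change of -0.15 ± 0.13 (edgeR quasi-likelihood adjusted p = 0.683). E2F8 was at 13.1 and 11.2 CPM in shSETD8 and at 12.9 and 12.8 CPM in shNull. Per kilobase, the order of the means was E2F1, E2F3, E2F2, E2F7, E2F8 in both groups. The means ran from 38.3 CPM for E2F1 to 3.46 CPM for E2F8 in shSETD8 and from 36.5 CPM to 3.66 CPM in shNull. In shSETD8 replicate 2, E2F2 at 3.724 CPM per kilobase was below E2F7 at 4.135.

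The median over histone deposition genes was -0.08 on the log2 scale. ASF1B, a chaperone that hands histones H3 and H4 to the assembly factor, was at 19.2 and 25.3 CPM in shSETD8 and at 27.2 and 27.7 CPM in shNull, a log2 fold change of -0.31 ± 0.17 (edgeR quasi-likelihood adjusted p = 0.537). Most of that distance came from shSETD8 replicate 1. CHAF1A and CHAF1B encode subunits of chromatin assembly factor 1. CHAF1B was at 63.8 and 59.9 CPM in shSETD8 and at 64.1 and 66.3 CPM in shNull, a log2 fold change of -0.08 ± 0.10 (edgeR quasi-likelihood adjusted p = 0.792). CHAF1A was at 140 and 105 CPM in shSETD8 and at 125 and 135 CPM in shNull. SLBP, which binds the stem loop of replication-dependent histone mRNAs, was at 99.6 and 85.9 CPM in shSETD8 and at 89.0 and 90.6 CPM in shNull, a log2 fold change of 0.05 ± 0.11 (edgeR quasi-likelihood adjusted p = 0.898), and overlapped as CHAF1A did.

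**Figure D3:**
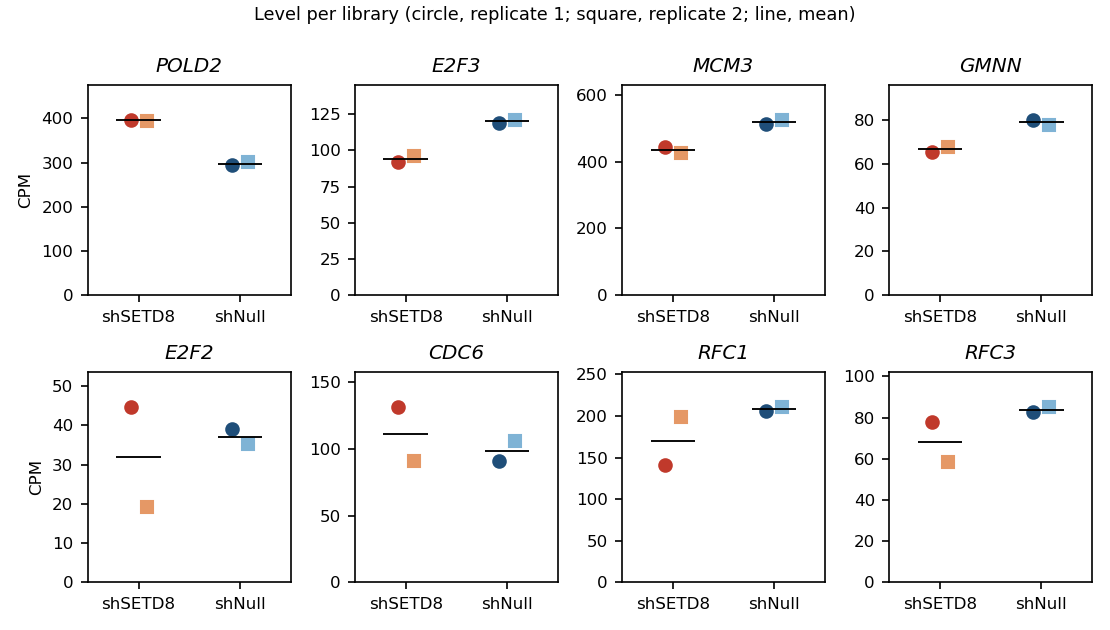
Level of 8 members in CPM (y axis, from 0), with shSETD8 on the left and shNull on the right of each panel. Circles are replicate 1, squares replicate 2 and lines the mean of the 2 libraries. In POLD2, E2F3, MCM3 and GMNN the 2 clones of each group lie together and the groups are apart, while in E2F2, CDC6, RFC1 and RFC3 the shSETD8 clones are apart from each other.

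The shSETD8 clones differed from each other more than the shNull clones did. The log2 difference between replicates 2 and 1 had an SD over members of 0.25 in shSETD8 and 0.10 in shNull. Over the 11604 genes with a mean of at least 100 counts it was 0.51 in shSETD8 and 0.21 in shNull. The members' SD was thus the smaller in both groups. The wider set includes genes with fewer counts than any member, and the part of count level was not tested. The gap was larger in shSETD8 than in shNull in 46 of 57 members, or 80.7%, against 70% of all genes. Among members it also had a direction: shSETD8 replicate 2 was below replicate 1 in 44 of 57, or 77.2%, against 50.7% of all genes, with a median log2 difference of -0.21 in shSETD8 and 0.03 in shNull. In 25 members replicate 1 lay above and replicate 2 below the shNull mean, and in 3 members the reverse held. Both clones lay below the shNull mean in 23 members and above it in 6. No share over all genes is given for these counts of members on either side of the shNull mean. SETD8 mRNA was lower in replicate 1, the clone with the higher level of most members, and any relation between the 2 cannot be read from 2 clones.

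With 1 library left out, edgeR made calls that are calls on single clones, since the lone library is then taken to vary as much as the pair. Without shSETD8 replicate 1, 4 members were called (MCM10, RFC3, POLD2 and E2F2), or 7.02%, against 9.55% of all genes. RFC3 then had a log2 fold change of -0.52 and E2F2 one of -0.94, with edgeR quasi-likelihood adjusted p of 0.0104 and 0.0016. Without shSETD8 replicate 2, 8 members were called (CDC6, TIPIN, RFC1, RFC2, POLD2, TK1, E2F3 and ASF1B), or 14%, against 17.2% of all genes, with log2 fold changes from -0.57 for RFC1 to 0.42 for CDC6. POLD2 was the member called in both, and without either shNull library 0 members and 0% of genes were called, with 1 member at an unadjusted p under 0.05 each. DESeq2 called 3 members without shSETD8 replicate 1, or 5.26% against 5.12% of all genes, and 5 without shSETD8 replicate 2, or 8.77% against 10.4%. Without shNull replicate 1 or 2 it called 0 members, against 0.12% and 0.305% of all genes.

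**Figure D4:**
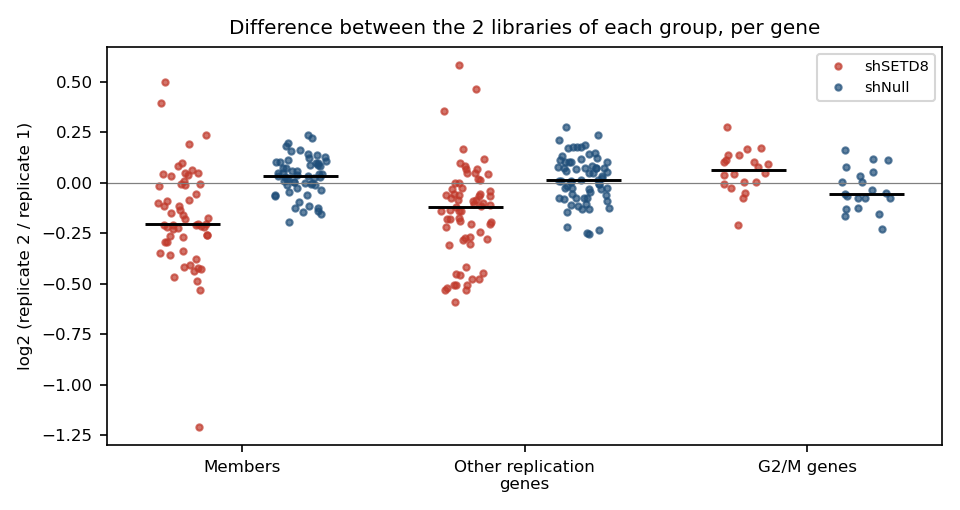
Log2 ratio of replicate 2 to replicate 1 (y axis) for each gene of 3 lists, with shSETD8 in red left of shNull in blue and a line at the median. For the 57 members the shSETD8 median lies at -0.21 and the shNull median at 0.03, the lowest point at -1.21 is E2F2, and the shSETD8 median of the 20 G2/M genes lies at 0.06.

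Members with and without an E2F word had close medians. Of the 23 members with a word, 15 were below 0 and 8 below both shNull libraries, and their median was -0.06 on the log2 scale. Of the 29 matched members without a word, 18 were below 0 and 12 below both, with a median of -0.07. The clones differed in both classes: medians against shNull were 0.08 in shSETD8 replicate 1 and -0.15 in replicate 2 with a word, and -0.02 and -0.07 without. Members above both shNull libraries numbered 0 with a word and 4 without, and 1 more, GINS4, had no matched promoter. Over all genes tested, 48.8% were below 0, 22.4% lay below both and 22.9% above both. These are descriptions, with no test.

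A second list of 66 genes from the same pathway, none of them a member, covers initiation and fork factors, clamp handling, licensing control, nucleotide supply, E2F partners with pocket proteins, and chromatin factors of replication. Its median log2 fold change was -0.04, and 37 genes were below 0, or 56.1% against 48.8% of all genes. Below both shNull libraries lay 20 genes, or 30.3% against 22.4%, and above both lay 14, or 21.2% against 22.9%. At an unadjusted edgeR p under 0.05, 3 were lower and 2 higher, or 4.55% against 5.16% and 3.03% against 5.65%, while edgeR and DESeq2 each called 0. The shares past that p and the share above both were thus near or under those of all genes. The difference between the 2 lists was not tested. In shSETD8, replicate 2 was below replicate 1 in 52 of 66, or 78.8%, against 50.7% of all genes.

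Within that list, NME1, a nucleoside diphosphate kinase, was at 190 and 166 CPM in shSETD8 and at 142 and 135 CPM in shNull, a log2 fold change of 0.36 ± 0.10 (edgeR quasi-likelihood adjusted p = 0.404). POLE4, a small subunit of polymerase epsilon, was at 31.8 and 28.1 CPM in shSETD8 and at 21.0 and 22.9 CPM in shNull, a log2 fold change of 0.45 ± 0.13 (edgeR quasi-likelihood adjusted p = 0.404). In both genes the groups did not overlap, and neither was called by edgeR or DESeq2.

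DTL, the substrate receptor of the ligase that degrades CDT1 and SETD8 proteins at PCNA, was at 103 and 107 CPM in shSETD8 and at 123 and 125 CPM in shNull, a log2 fold change of -0.24 ± 0.09 (edgeR quasi-likelihood adjusted p = 0.445). ASF1A, the paralogue of ASF1B, was at 38.1 and 35.8 CPM in shSETD8 and at 46.5 and 45.5 CPM in shNull, a log2 fold change of -0.32 ± 0.10 (edgeR quasi-likelihood adjusted p = 0.425). Both were apart between the groups with close clones. TFDP2, a dimer partner of E2F factors, was at 66.0 and 91.0 CPM in shSETD8 and at 103 and 102 CPM in shNull, lowest in replicate 1, with a log2 fold change of -0.38 ± 0.17 (edgeR quasi-likelihood adjusted p = 0.486). Of the S phase cyclins, CCNA2 was at 140 and 142 CPM in shSETD8 and at 156 and 158 CPM in shNull. CCNE1 was at 14.99 and 14.4 CPM in shSETD8 and at 15.2 and 16.3 CPM in shNull, and CCNE2 at 8.18 and 5.43 CPM in shSETD8 and at 9.31 and 8.66 CPM in shNull. All 3 cyclins lay below both shNull libraries, as did 22.4% of all genes, and CCNE1 did so by a narrow margin. Their log2 fold changes were -0.16 ± 0.08, -0.10 ± 0.14 and -0.40 ± 0.25 (edgeR quasi-likelihood adjusted p = 0.527, 0.813 and 0.583), and none was called. That of CCNE2 was -0.73 without shSETD8 replicate 1, where edgeR called it, and -0.14 without shSETD8 replicate 2.

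Summed over the set, the members reached 6850 and 6215 CPM in shSETD8 and 6536 and 6815 CPM in shNull. Relative to the shNull mean this was 103% and 93.1% in shSETD8, and the groups overlapped. The 66 other pathway genes summed to 7594 and 6908 CPM in shSETD8 and to 7424 and 7407 CPM in shNull, or 102% and 93.2% of the shNull mean in the shSETD8 libraries. The 20 G2/M genes, which act after replication, summed to 4189 and 4330 CPM in shSETD8 and to 4832 and 4789 CPM in shNull, or 87.1% and 90.0% of the shNull mean in the shSETD8 libraries. They were thus below shNull in both clones, and replicate 2 was below replicate 1 in 5 of 20. Of the 20, 17 had a log2 fold change below 0, or 85% against 48.8% of all genes. Both shSETD8 libraries lay below both shNull libraries in 13, or 65% against 22.4%, and above both in 2, or 10% against 22.9%. Their median against the shNull mean was -0.15 in shSETD8 replicate 1 and -0.12 in replicate 2. A downward lean was thus not particular to the members. The part of the G2/M genes in the members' values was not tested.

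**Figure D5:**
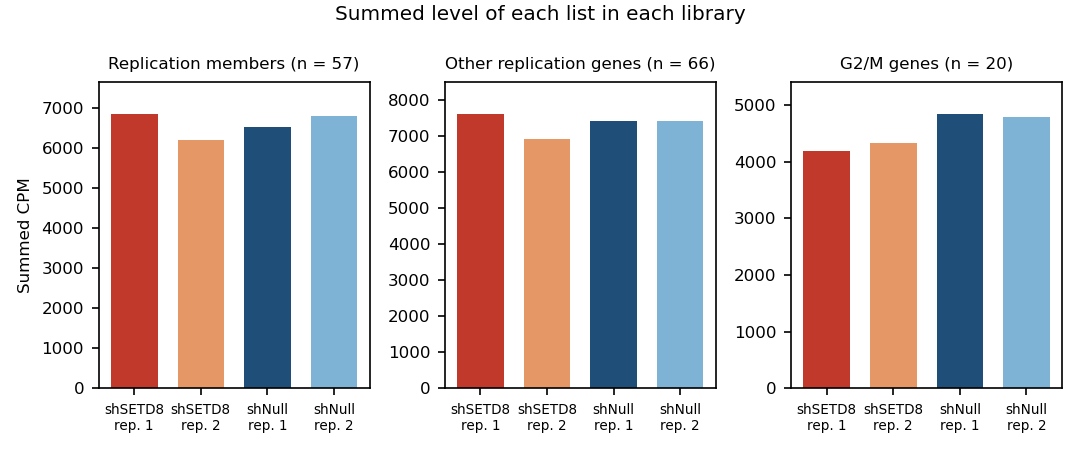
Summed CPM (y axis, from 0) of the 57 members, 66 other replication genes and 20 G2/M genes in each library, with shSETD8 bars left of shNull bars. The members and the other replication genes are highest in shSETD8 replicate 1 and lowest in shSETD8 replicate 2, while the G2/M sum is lower in both shSETD8 libraries than in both shNull libraries.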

How the data were processed

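Messenger RNA of 2 shSETD8 and 2 shNull clones of D458 cells was measured by RNA-seq. The deposited values are raw whole-number counts. The build was hg19, and the submitters' processing notes name STAR 2.4.0.1, Trimmomatic 0.36, DESeq 1.32.0 and FastQC 0.10.1. The sources used here do not give the counting program or its strand setting, so reads of overlapping genes or near-identical copies may be split. Another 2 columns of counts matched no sample and were not used. In 43 rows the symbol was missing (0.241% to 0.277% of counts) and in 22 it had become a date. These rows stayed in the tests.

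The members and lists were chosen with earlier results of these data known. Every member could be named. Full statistics went to the 2 of each role group with the lowest p plus CDT1, GMNN, MCM2, PCNA, E2F1, RRM2 and SLBP, and among other pathway genes to the 6 with the lowest p plus DTL, CCNE1, CCNE2 and CCNA2. Of these, 1 gene is not reported here. Other members described with values, such as E2F2, were picked after their values were seen.

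The main fit was edgeR 4.0.16 (R 4.3.3) with TMM, filterByExpr (14546 genes kept, 2293 removed), quasi-likelihood F tests and Benjamini-Hochberg adjustment, with a threshold of 0.05. Normalisation factors lay between 0.992 and 1.02. SE was computed by dividing the absolute log2 fold change by the root of its F. CPM uses TMM library sizes, and values of 1 library against the shNull mean are log2 CPM with a prior count of 2. CPM per kilobase divides by the longest GENCODE principal transcript, which is not the authors' annotation. Promoter words were counted in RefSeq windows of 300 bases on GRCh38.p14. The fit was tested on simulated data.

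Groups came from the treatment label. Replicate numbers follow record order and pair nothing. Replicates differed beyond sampling noise (chi-square per gene 71.1 in shSETD8 and 16.1 in shNull). With 2 against 2 libraries an exact permutation test cannot go below 0.333, so none was run. P-values set the difference between groups against the spread between clones, which each fit estimates with information shared across genes. Alternatives were DESeq2 1.42.0, the edgeR likelihood ratio test, limma-voom (limma 3.58.1), other scalings, no filter, a threshold of 0.01 and each library left out. DESeq2 with a library left out was added after seeing the data. Protein sequences were not used here.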

Additional observations from a re-analysis of the deposited data

How the results depend on the processing

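Over all genes, edgeR's quasi-likelihood test called 0, as did limma-voom, the 2 other scalings, no filter and a threshold of 0.01. DESeq2 called 274 and the edgeR likelihood ratio test 247. With 1 library left out edgeR called between 0 and 2550. DESeq2 with a library left out, which was added after seeing the data, called 761 without shSETD8 replicate 1, 1541 without shSETD8 replicate 2, 18 without shNull replicate 1 and 46 without shNull replicate 2. Members called numbered 0 in edgeR, 1 in DESeq2, 1 in the likelihood ratio test, 0 to 8 in edgeR with a library left out, 3 and 5 in DESeq2 without shSETD8 replicate 1 and 2, and 0 in DESeq2 without either shNull library. The cause of these differences between tests was not tested. Members below both shNull libraries numbered 21, and 23 to 42 with a library left out, the highest without shSETD8 replicate 1. Fewer libraries make that condition easier to meet. Members below 0 numbered 37, and 26 to 48 with a library left out. The members' median of -0.06 ran from -0.08 to -0.06 over the other tests and scalings. It was -0.13 without shSETD8 replicate 1 and turned to 0.03 without shSETD8 replicate 2. No paired analysis was possible because replicate numbers follow record order and name no shared clone, culture or day. Depth was at least 534 counts per member and library.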
